A study of Mus musculus with 8 samples.

Results

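The genes described here encode secreted matrix proteins, coagulation factors and the parts of the plasminogen activation system that leukocytes make: Thbs1, Fn1, Vcan, Tgfbi, F10, F5, F13a1, Plau, Plaur and Serpinb2. They are 10 of the 49315 gene identifiers counted in every library, and all 10 passed the filter on low counts. The list was given by symbol, with earlier results of these libraries known, and 2 of its genes were chosen by measured values: Thbs1 for being among the most abundant transcripts, and Fn1 for being lower in H2R-deficient high-density libraries, so the level of Thbs1 and the density and high-density genotype values of Fn1 are given as descriptions without a test. RNA was sequenced from neutrophils of C57BL/6 mice aged 2 months, an inbred laboratory strain. All mice had received casein, a protein of milk used to recruit neutrophils to the peritoneum, and the recovered cells were split by density into a low and a high population. The 4 groups were wild-type high density, wild-type low density, H2R deficient high density and H2R deficient low density, with 2 libraries each. H2R is the histamine H2 receptor, encoded by Hrh2, which raises cyclic AMP through the G protein Gs. The labels give neither the allele of the H2R deficiency nor whether cells of several mice were pooled.

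Thrombospondin, fibronectin, versican and the TGF-beta-induced protein are secreted and become part of the provisional matrix of inflamed tissue, where they bind integrins and other receptors of leukocytes. Coagulation factor X, once activated, forms with factor V the complex that converts prothrombin to thrombin, and factor XIII crosslinks the fibrin that thrombin makes. Urokinase, encoded by Plau, turns plasminogen into plasmin, which dissolves fibrin; its receptor, encoded by Plaur, holds it at the cell surface, and the serpin encoded by Serpinb2 inhibits it. Macrophages and monocytes are known sources of many of these proteins, and platelets store thrombospondin.

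RefSeq promoter windows (GRCm38.p6) were matched for 7 of the 10 genes. The windows of Plaur and Serpinb2 are shown because they were the 2 of the 7 genes that held a motif match, and those of Tgfbi and F5 because the patterns of these genes over the libraries were the closest to each other among the 10 genes. Each line gives the 250 bases before the transcription start, 5′ to 3′ on the gene's strand, and capitals mark motif matches.
Plaur, chr7:24462233-24462482, plus strand: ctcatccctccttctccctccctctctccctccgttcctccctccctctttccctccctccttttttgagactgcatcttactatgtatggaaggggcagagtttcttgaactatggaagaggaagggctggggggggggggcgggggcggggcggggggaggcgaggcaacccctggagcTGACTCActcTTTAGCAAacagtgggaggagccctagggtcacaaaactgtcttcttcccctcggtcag
Serpinb2, chr1:107511173-107511422, plus strand: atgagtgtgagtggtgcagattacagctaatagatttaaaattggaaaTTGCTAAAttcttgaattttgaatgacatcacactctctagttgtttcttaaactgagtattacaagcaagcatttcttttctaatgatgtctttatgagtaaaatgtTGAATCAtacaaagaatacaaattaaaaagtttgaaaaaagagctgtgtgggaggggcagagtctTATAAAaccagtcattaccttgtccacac
Tgfbi, chr13:56609336-56609585, plus strand: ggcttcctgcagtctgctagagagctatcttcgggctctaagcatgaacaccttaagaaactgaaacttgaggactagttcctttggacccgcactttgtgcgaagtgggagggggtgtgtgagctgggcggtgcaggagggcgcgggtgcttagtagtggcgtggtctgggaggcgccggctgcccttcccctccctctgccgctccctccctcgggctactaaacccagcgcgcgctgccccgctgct
F5, chr1:164151585-164151834, plus strand: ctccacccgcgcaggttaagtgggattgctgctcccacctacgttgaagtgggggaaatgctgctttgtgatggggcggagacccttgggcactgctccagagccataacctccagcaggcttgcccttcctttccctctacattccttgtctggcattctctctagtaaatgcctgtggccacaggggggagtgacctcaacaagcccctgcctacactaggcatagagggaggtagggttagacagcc
The motifs searched on both strands were AP-1 (TGANTCA), the cyclic AMP response element (TGACGTCA), C/EBP (TTGCNNAA), PU.1 (GAGGAAGT), GATA factors (AGATAAG) and NF-kappaB (by a consensus of 10 letters), and the TATA box (TATAAA) was searched on the gene's strand. The Plaur window held an AP-1 match, TGACTCA, at 69 to 63 bases before the start, and a C/EBP match on the opposite strand at 59 to 52 bases before it. The window of the first Serpinb2 start site held an AP-1 match, TGAATCA, at 94 to 88 bases, a C/EBP match at 202 to 195 bases and a TATA box at 29 to 24 bases before the start. None of these matches overlapped another. The AP-1 letters were found in 6.75% of all 32851 RefSeq windows of this length, the C/EBP letters in 9.56% and the TATA box in 7.59%. The windows of Tgfbi, F5, Vcan, F10 and F13a1 held no match to any of the 7 motifs. A match is a description of the letters and shows no binding.

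Each library held 19862716 to 24199215 counts assigned to genes, and a count of 0 allowed a level of at most 0.124 to 0.151 CPM (counts scaled to library size), covering counting error only. Replicate libraries had a correlation across genes of r = 0.973 to 0.980 on the log2 CPM scale. The labels do not say whether they came from separate animals, so p-values reflect only differences between libraries, which may be technical. Hrh2, the targeted gene, had 275 to 599 counts in the H2R-deficient high-density libraries against 700 to 2003 in wild type, and 215 to 435 against 556 to 830 at low density. Neutrophil markers were abundant in every library, with S100a9 at 10883 to 23765 CPM and Ly6g at 79.6 to 197 CPM. The summed level of 15 neutrophil markers was 55305 to 58855 CPM at high density in both genotypes, 42235 to 54349 CPM in wild-type low density and 30167 to 39690 CPM in H2R-deficient low density. The scaling of the libraries differed between the populations. Factors of the trimmed mean of M-values (TMM) were 0.742 to 0.808 at high density and 1.11 to 1.49 at low density. With scaling by total counts alone, the median log2 change of all 14909 tested genes from high to low density was 0.67 in place of 0.10 in wild type, and 0.999 in place of 0.10 in H2R-deficient libraries. Values under TMM are given first, and the direction under total counts is given where it differs. In bulk samples, fewer cells of a type and less RNA per cell cannot be told apart.

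On the TPM scale, which divides counts by gene length and scales each library to the same sum, Thbs1 was the most abundant of the 10 genes in each of the 4 groups. Its mean over the 8 libraries was 7573 TPM, rank 13 of all genes, and its counts were rank 2 before the division by length. Plaur followed at 2077 TPM (rank 56) and F10 at 760 TPM (rank 176). Tgfbi had a mean of 395 TPM, Serpinb2 196, Fn1 124, F5 40.4, Plau 38.0, F13a1 27.2 and Vcan 15.1. Thbs1, at 5553 to 10467 TPM, did not overlap with Plaur, at 1095 to 2912 TPM. Every later pair of neighbours in this order overlapped in their ranges over the 8 libraries. The order within a group changed mostly among the low genes. Fn1 was the eighth of the 10 in H2R-deficient high density, at 23.8 ± 7.38 TPM (SD, n = 2), and the fifth in wild-type low density, at 209 ± 53.5 TPM (SD, n = 2).

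**Figure D1:**
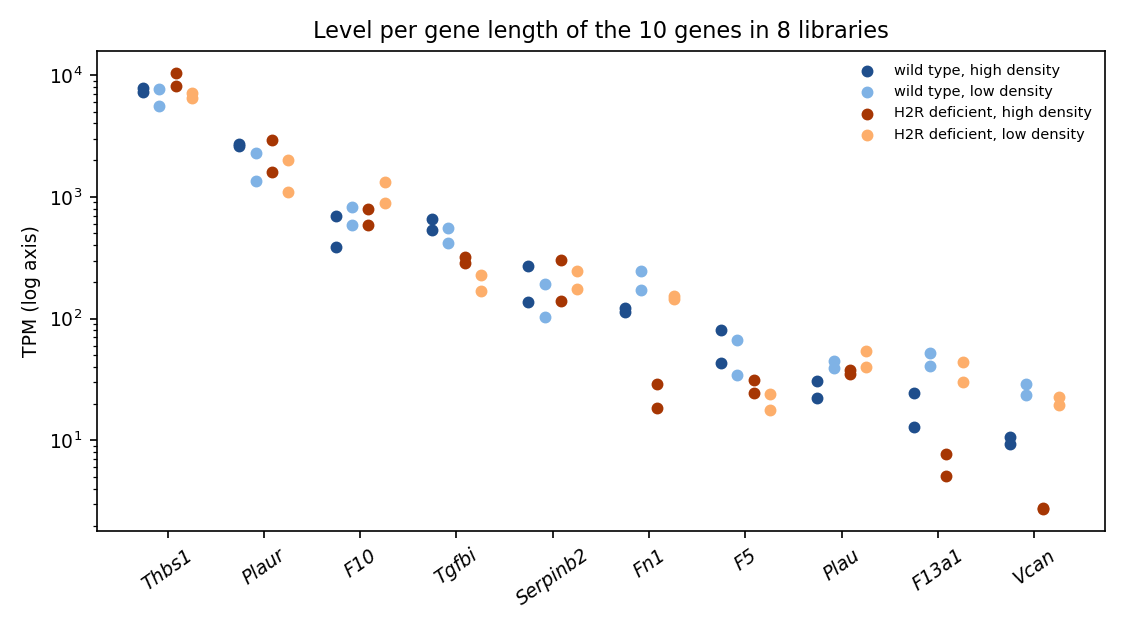
TPM on a log axis for each gene (x axis, ordered by mean over 8 libraries) in each library (points), coloured by group. Thbs1 lies between 5553 and 10467 TPM in every library, above all other genes shown, and Fn1, F13a1 and Vcan have their lowest points in H2R-deficient high density.

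The first comparison asked which of these genes differed between low-density and high-density neutrophils of 1 genotype. In wild-type cells 1 of the 9 genes with a test had an adjusted p under 0.05 in the edgeR quasi-likelihood fit. This was Vcan, which was higher at low density. Over all genes tested, 12.7% passed, 8.51% as higher and 4.15% as lower. In H2R-deficient cells 7 of 9 passed, against 54.0% of all genes. Vcan and F13a1 rose at low density, where 30.0% of all genes were called higher, and Thbs1, Tgfbi, F5, Plau and Plaur fell, where 23.9% were called lower. With scaling by total counts alone 3 of the 7 remained, Vcan and F13a1 as higher and Tgfbi as lower, and the value of Plau turned positive. Over all 14909 genes, 7690 were then called higher and 389 lower. In each genotype, leaving out any 1 of its 4 libraries gave fewer calls among the members and among all genes. The wild-type call of Vcan was lost in each such fit, with log2 values of 0.64 to 0.84. DESeq2 called 5 of the 9 in wild type, Vcan as higher and Thbs1, Tgfbi, Plaur and Serpinb2 as lower. Over all 13463 genes with a DESeq2 result, 1292 were called higher and 1486 lower. Leaving out Fn1, the low-density and high-density libraries did not overlap for 6 of 9 genes in wild type, against 62.1% of all genes, and for 8 of 9 in H2R-deficient libraries, against 81.1%.

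**Figure D2:**
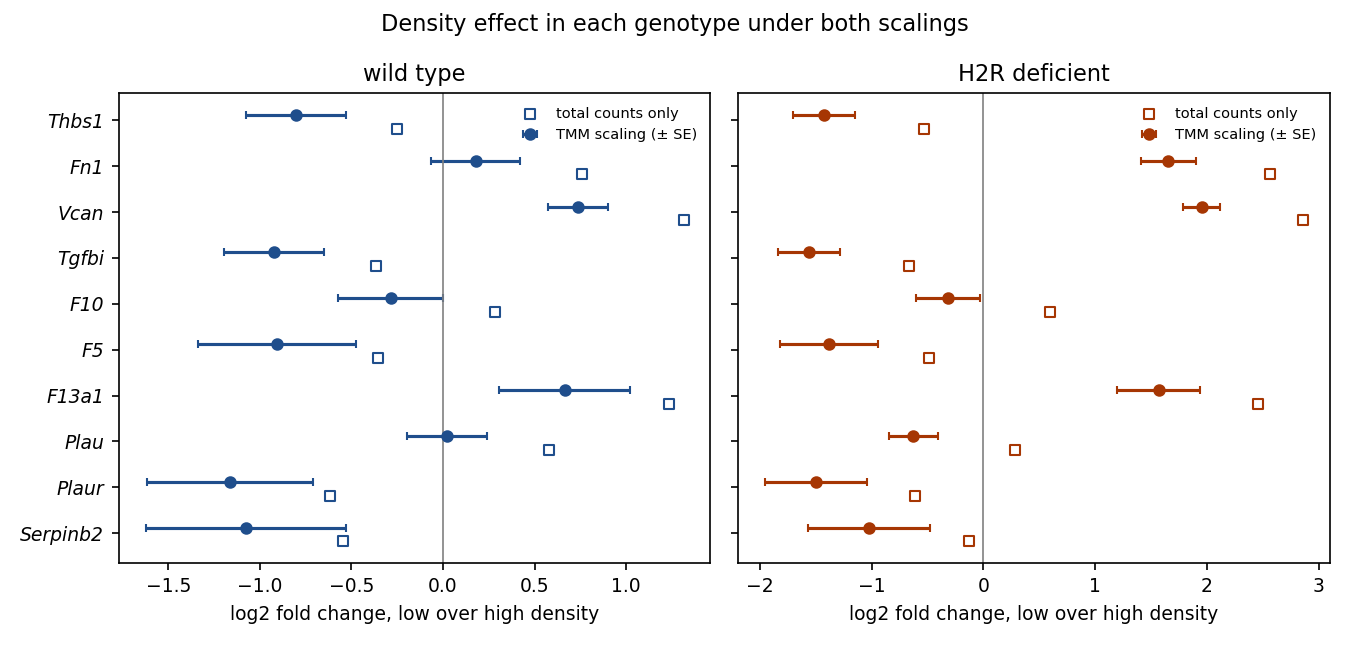
Log2 fold change of low over high density for each gene in wild type (left) and H2R-deficient cells (right), under TMM scaling (filled circles, bars show the standard error) and under total counts only (open squares). Vcan, F13a1 and Fn1 lie above 0 in both genotypes under both scalings, and the open squares lie to the right of the circles throughout.

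Thbs1 (ENSMUSG00000040152; GRCm38 chromosome 2, positions 118111876 to 118127133) encodes thrombospondin 1, a matricellular glycoprotein that binds CD36 and CD47 and activates latent TGF-beta. Under TMM scaling its level was 21653 and 23435 CPM in the wild-type high-density libraries and 9970 and 15881 CPM in the wild-type low-density libraries. In H2R-deficient cells it was 25510 and 34167 CPM at high density and 9784 and 12362 CPM at low density. Both high-density groups thus lay above both low-density groups. Thbs1 fell by 1.43 ± 0.28 (SE) on the log2 scale from high to low density in H2R-deficient libraries (edgeR adjusted p = 0.00255). The wild-type value was −0.80 ± 0.27 (adjusted p = 0.0778). Under total counts these values were −0.53 (adjusted p = 0.0619) and −0.25 (adjusted p = 0.385), and the wild-type groups overlapped. Counts over the exons of Thbs1 share 208 bases with a predicted gene on the other strand, Gm29233, and reads of the pair cannot be told apart without the strand setting.

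Fn1 (ENSMUSG00000026193; chromosome 1, positions 71585520 to 71653200) encodes fibronectin, a matrix glycoprotein bound by integrins. Its level was 111 and 182 CPM in H2R-deficient high density, 444 and 480 CPM in H2R-deficient low density, 651 and 698 CPM in wild-type high density and 852 and 675 CPM in wild-type low density. The 2 H2R-deficient high-density libraries were the lowest of the 8. Wild-type high-density and low-density libraries overlapped, with a log2 difference of 0.18 ± 0.24, but under total counts low density was higher without overlap, by 0.76 ± 0.24. In H2R-deficient cells the groups did not overlap, and low density was higher by 1.66 ± 0.25 on the log2 scale, a 3.15-fold difference, and by 2.57 ± 0.26 under total counts. These density values are descriptions, since the high-density libraries chose the gene. The exons of Fn1 share 292 bases with Apol7d on the other strand.

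Vcan (ENSMUSG00000021614; chromosome 13, positions 89655312 to 89742509) encodes versican, a large chondroitin sulfate proteoglycan that binds hyaluronan. It was the lowest of the 10 genes in mean TPM, with 343 to 3093 counts per library. Its level was 20.2 and 21.9 CPM in H2R-deficient high density and 81.8 and 81.0 CPM in H2R-deficient low density. In wild type it was 77.1 and 67.2 CPM at high density and 125 and 115 CPM at low density. No 2 groups of a contrast overlapped, and the H2R-deficient high-density libraries again stood lowest. Vcan rose at low density by 1.95 ± 0.17 on the log2 scale (3.87-fold) in H2R-deficient libraries (edgeR adjusted p = 0.000193). In wild type it rose by 0.74 ± 0.16 (1.67-fold, edgeR adjusted p = 0.0249). Under total counts these values were 2.86 ± 0.19 and 1.31 ± 0.18.

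Tgfbi (ENSMUSG00000035493; chromosome 13, positions 56609603 to 56639339) encodes a matricellular protein that TGF-beta induces in many cells. It ran the other way from Vcan and Fn1 between the populations. Its level was 873 and 702 CPM in wild-type high density and 329 and 503 CPM in wild-type low density. In H2R-deficient cells it was 390 and 458 CPM at high density and 112 and 175 CPM at low density. The H2R-deficient low-density libraries were the lowest of the 8. Tgfbi fell at low density by 1.56 ± 0.28 on the log2 scale in H2R-deficient libraries (edgeR adjusted p = 0.00179), and by 0.67 under total counts (adjusted p = 0.0295). The wild-type value was −0.92 ± 0.27 (adjusted p = 0.0557).

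**Figure D3:**
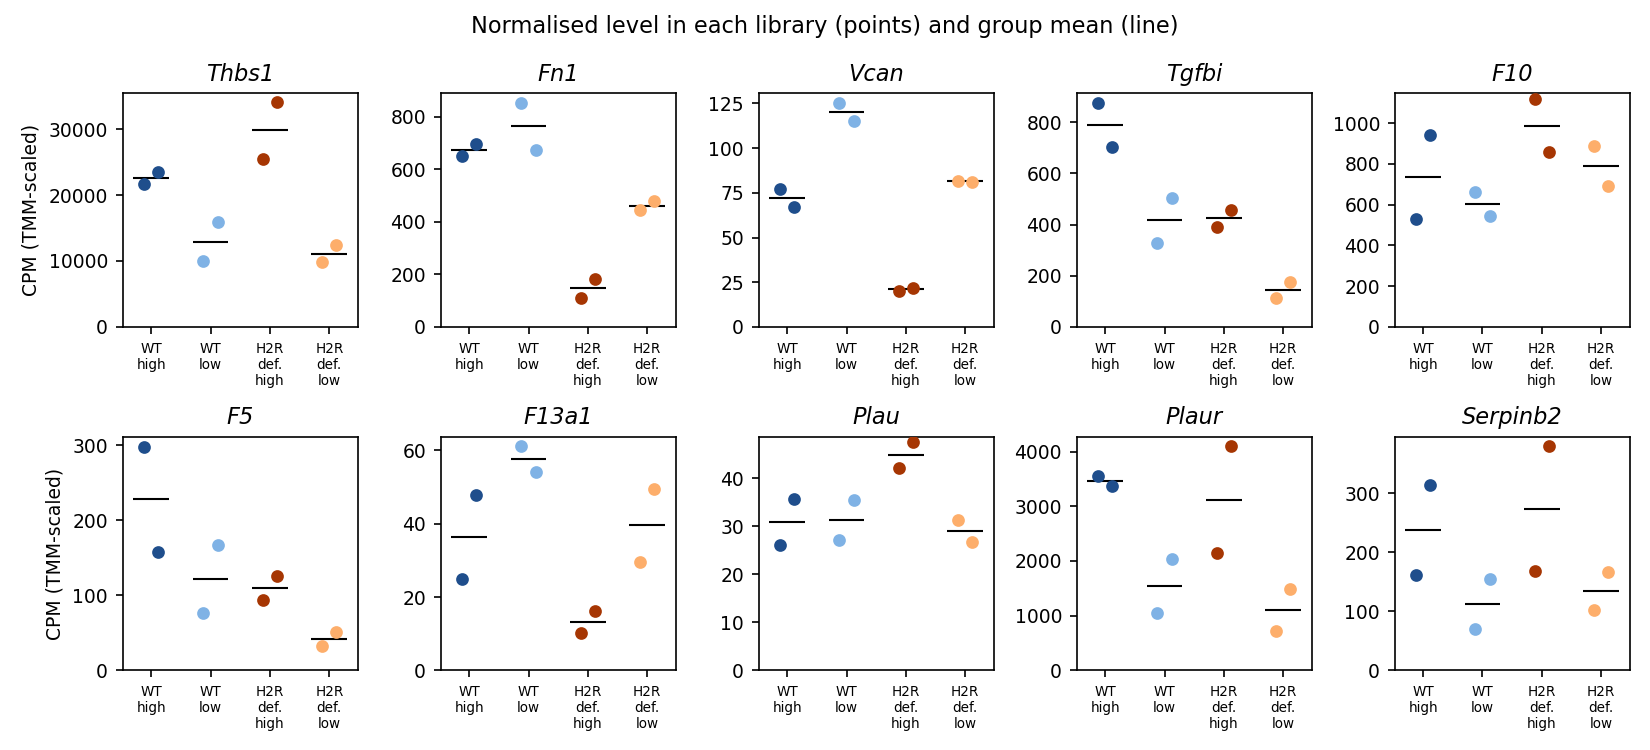
CPM over TMM-scaled library sizes in each library (points) and the group mean (line) for the 10 genes. Each panel has its own y axis starting at 0 (WT, wild type; H2R def., H2R deficient; high and low are the density populations); the H2R-deficient high-density points of Fn1 (111 and 182) and Vcan (20.2 and 21.9) are below all others in their panels.

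Of the coagulation genes, F10 was the most abundant and varied least. F10 (ENSMUSG00000031444; chromosome 8, positions 13037308 to 13056676) encodes factor X, the zymogen of the protease that cleaves prothrombin. Its level was 528 and 942 CPM in wild-type high density, 662 and 544 CPM in wild-type low density, 1116 and 858 CPM in H2R-deficient high density and 890 and 693 CPM in H2R-deficient low density. The density groups overlapped in each genotype under TMM. The log2 difference of low from high density was −0.29 ± 0.29 in wild type (95% interval −0.93 to 0.36, edgeR adjusted p = 0.507) and −0.32 ± 0.29 in H2R-deficient libraries (95% interval −0.96 to 0.33, adjusted p = 0.365). Under total counts both values were positive, at 0.29 and 0.59, and in H2R-deficient libraries low density was then higher without overlap.

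F5 (ENSMUSG00000026579; chromosome 1, positions 164151838 to 164220277) encodes factor V, the cofactor of activated factor X. Its level was 297 and 158 CPM in wild-type high density and 76.2 and 167 CPM in wild-type low density, which overlapped. In H2R-deficient cells it was 93.3 and 126 CPM at high density and 33.1 and 51.2 CPM at low density. F5 fell at low density by 1.38 ± 0.44 on the log2 scale in these cells (edgeR adjusted p = 0.0283). The adjusted p rose to 0.0640, 0.144 and 0.153 without high-density replicate 1, high-density replicate 2 and low-density replicate 1, and to 0.298 under total counts. Wild type gave −0.91 ± 0.43 (adjusted p = 0.181). The exons of F5 share 262 bases with the antisense gene Gm16548.

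F13a1 (ENSMUSG00000039109; chromosome 13, positions 36867178 to 37050244) encodes the catalytic A subunit of factor XIII, a transglutaminase also made by monocytes and macrophages. It had 10.3 and 16.3 CPM in H2R-deficient high density and 29.5 and 49.4 CPM in H2R-deficient low density. In wild type it had 25.0 and 47.7 CPM at high density and 61.0 and 54.1 CPM at low density. Low density was thus higher without overlap in both genotypes, as for Vcan. F13a1 rose by 1.57 ± 0.37 on the log2 scale in H2R-deficient libraries (2.97-fold, edgeR adjusted p = 0.00729), and by 2.46 under total counts, with an adjusted p of 0.0636 without high-density replicate 1. The wild-type value was 0.66 ± 0.36 (adjusted p = 0.226), and under total counts 1.23 (adjusted p = 0.0261).

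In the plasminogen system, Plau (ENSMUSG00000021822; chromosome 14, positions 20836662 to 20843388), which encodes urokinase, was low, with a 1.82-fold range between the highest and lowest library under TMM and a 2.30-fold range under total counts. Its level was 26.1 and 35.6 CPM in wild-type high density, 27.2 and 35.5 CPM in wild-type low density, 42.2 and 47.5 CPM in H2R-deficient high density and 31.3 and 26.8 CPM in H2R-deficient low density. The H2R-deficient high-density libraries were the 2 highest. The wild-type difference was 0.02 ± 0.22 (95% interval −0.47 to 0.51, edgeR adjusted p = 0.951). Under total counts it was 0.58 ± 0.23 (adjusted p = 0.0751), with low density above high density without overlap. Plau fell by 0.63 ± 0.22 on the log2 scale in H2R-deficient libraries (adjusted p = 0.0348), but leaving out any 1 of the 4 H2R-deficient libraries gave adjusted p-values of 0.0705 to 0.177. Under total counts the H2R-deficient value was also positive, at 0.29 (adjusted p = 0.313).

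Plaur (ENSMUSG00000046223; chromosome 7, positions 24462484 to 24475968), whose product anchors urokinase to the cell surface, was the second most abundant of the 10 genes. Its level was 3554 and 3363 CPM in wild-type high density and 1046 and 2040 CPM in wild-type low density. In H2R-deficient cells it was 2146 and 4096 CPM at high density and 712 and 1496 CPM at low density. All high-density libraries lay above all low-density libraries, and the 2 libraries of a group also differed, least in wild-type high density. Plaur fell 2.83-fold at low density in H2R-deficient libraries, with a standard error of 0.46 on the log2 scale (edgeR adjusted p = 0.0239). The adjusted p was 0.163 without high-density replicate 2, 0.122 without low-density replicate 1 and 0.224 under total counts, where the groups overlapped. Leaving out 1 library moved the log2 value between −2.13 and −0.96. Wild type gave −1.16 ± 0.45 (adjusted p = 0.117).

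Serpinb2 (ENSMUSG00000062345; chromosome 1, positions 107511423 to 107535478) encodes plasminogen activator inhibitor type 2, a serpin of activated macrophages. Its level was 161 and 314 CPM in wild-type high density, 70.9 and 154 CPM in wild-type low density, 168 and 380 CPM in H2R-deficient high density and 103 and 166 CPM in H2R-deficient low density. The higher library of a group had the same replicate number at both densities, 4 in wild type and 2 in H2R deficient. The log2 differences of low from high density, −1.08 ± 0.55 in wild type (edgeR adjusted p = 0.210) and −1.03 ± 0.55 in H2R-deficient libraries (adjusted p = 0.147), did not pass the test. DESeq2 called it lower in both, with adjusted p-values of 0.04998 and 0.0311. Its exons share 291 bases with Serpinb10 on the same strand, so its counts are uncertain to that extent.

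The second comparison asked which genes differed between H2R-deficient and wild-type cells of the same density. At low density, which the choice of Fn1 did not use, 0 of the 10 genes passed edgeR's test, as did 0.00% of all 14909 genes; 3128 of all genes and 4 of the 10 had an unadjusted p under 0.05. limma-voom called 0 and DESeq2 called 3 of the 10. Over all genes limma-voom called 0 of 14909, and DESeq2 called 387 higher and 528 lower of 9417. The 4 genes with an unadjusted p under 0.05 were Tgfbi, F5, Vcan and Fn1. Each was lower in both H2R-deficient libraries than in both wild-type libraries. Tgfbi differed by −1.53 ± 0.28 on the log2 scale (edgeR adjusted p = 0.104), and without wild-type low-density replicate 2 it passed with an adjusted p of 0.0378. F5 differed by −1.53 ± 0.44 (adjusted p = 0.128), Vcan by −0.56 ± 0.16 (adjusted p = 0.119) and Fn1 by −0.72 ± 0.24 (adjusted p = 0.153). DESeq2 called Tgfbi (adjusted p = 5.37e-05), F5 (adjusted p = 0.00578) and Vcan (adjusted p = 0.0473). The groups did not overlap for 6 of the 10 genes, against 60.1% of all genes.

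For the other 6 genes the 95% intervals at low density included 0. Thbs1 differed by −0.22 ± 0.27 (95% interval −0.84 to 0.39), Plau by −0.11 ± 0.22 (−0.60 to 0.38) and Plaur by −0.48 ± 0.45 (−1.51 to 0.55), and the libraries of the genotypes overlapped for each. Under total counts the values of Thbs1 and Plau were positive, at 0.05 and 0.17. F10 was higher in both H2R-deficient libraries, by 0.39 ± 0.29 (edgeR adjusted p = 0.450). F13a1 differed by −0.55 ± 0.36 (adjusted p = 0.402) and Serpinb2 by 0.26 ± 0.54 (adjusted p = 0.825).

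**Figure D4:**
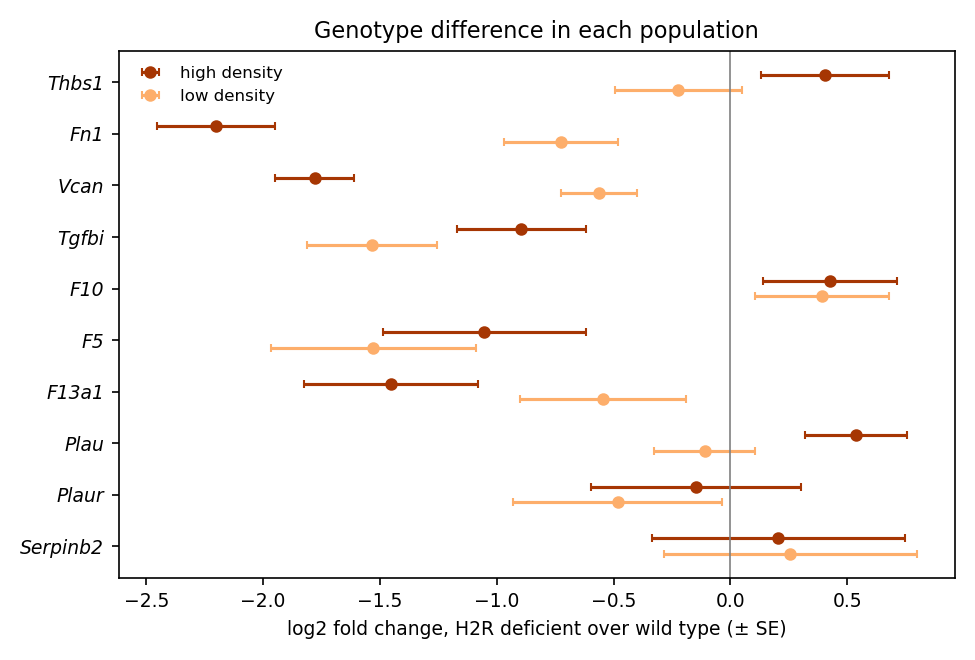
Log2 fold change of H2R deficient over wild type for each gene at high density (dark) and low density (light) under TMM scaling, with standard errors. At high density Fn1 (−2.20), Vcan (−1.78) and F13a1 (−1.45) are farthest below 0; at low density Tgfbi and F5 (both −1.53) are.

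At high density the values are descriptions. Fn1 was lower in H2R-deficient libraries by 2.20 ± 0.25 on the log2 scale, a 4.60-fold difference of means of 147 ± 50.1 and 675 ± 32.7 CPM (SD, n = 2 each). Vcan was 3.43-fold lower, at 21.0 ± 1.19 against 72.2 ± 7.0 CPM, and F13a1 2.74-fold lower, at 13.3 ± 4.28 against 36.3 ± 16.0 CPM. F5 and Tgfbi were 2.08-fold and 1.86-fold lower. The libraries of the 2 genotypes did not overlap for any of these 5 genes. Plau and Thbs1 were higher without overlap, by 0.54 ± 0.22 and 0.40 ± 0.27 on the log2 scale. F10, Plaur and Serpinb2 overlapped between genotypes, with values of 0.43 ± 0.29, −0.15 ± 0.45 and 0.21 ± 0.54. Leaving out Fn1, which was chosen from this contrast, the groups did not overlap for 6 of 9 genes, beside 46.9% of all genes. In this contrast edgeR called 31 genes, or 0.208% of all tested.

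The third comparison asked whether the density difference itself differed between the genotypes. No gene passed edgeR's test of this interaction, among the 9 tested members or among all 14909 genes (0.00%); 1 of the 9 and 3150 of all genes had an unadjusted p under 0.05. DESeq2 called 1 of the 9 (all genes: 606 higher and 384 lower of 9417) and limma-voom 0 (all genes: 0 of 14909). The member was Vcan, with a density difference larger in H2R-deficient libraries by 1.22 ± 0.23 on the log2 scale (edgeR adjusted p = 0.0906). It was called under total counts, with 1.55 (adjusted p = 0.0388), and by DESeq2, with 1.24 (adjusted p = 0.00164). For Fn1 the same quantity was 1.48 ± 0.34, given without a test, and for F13a1 it was 0.91 ± 0.51 (adjusted p = 0.340). The interaction of Thbs1 was −0.63 ± 0.38 (adjusted p = 0.379), that of Tgfbi −0.64 ± 0.39 (adjusted p = 0.370) and that of Plau −0.65 ± 0.31 (adjusted p = 0.261). The values of F10 (−0.03 ± 0.40), F5 (−0.48 ± 0.61), Plaur (−0.34 ± 0.63) and Serpinb2 (0.05 ± 0.76) had standard errors as large as the values or larger. So Thbs1, Tgfbi, F5, F13a1, Plau and Plaur, which edgeR called in H2R-deficient and not in wild-type libraries, were not shown to differ between the genotypes in their density difference.

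The patterns of the 10 genes over the 8 libraries were compared by the root mean square difference of log2 CPM after centring each gene on its mean. This is a description over libraries that share their scaling. Tgfbi and F5 were the closest pair, at 0.215, followed by F10 and Plau at 0.298, Fn1 and Vcan at 0.323 and Thbs1 and Plaur at 0.363. The measure is also small for genes that vary little. F10 and Plau had an SD over the libraries of 0.39 and 0.32 on this scale, against 1.04 and 1.01 for Fn1 and Vcan. Vcan and F13a1 (0.401) and Fn1 and F13a1 (0.412) were also among the 7 closest pairs, as were Thbs1 and Serpinb2 (0.379). Vcan and Plaur were the farthest apart, at 1.53. Ligand and receptor of the urokinase system, Plau and Plaur, differed by 0.752. Among 7409 genes whose mean reached 5 CPM, those closest to Thbs1 were Nabp1 (0.102), Antxr2 (0.126), Sgk1 (0.156) and Glrx (0.164). Those closest to Fn1 were Mrc1 (0.233), Sash1 (0.241), Ms4a4a (0.249) and Cd36 (0.256). Mrc1 encodes the macrophage mannose receptor, and Cd36 a scavenger receptor that also binds thrombospondin.

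**Figure D5:**
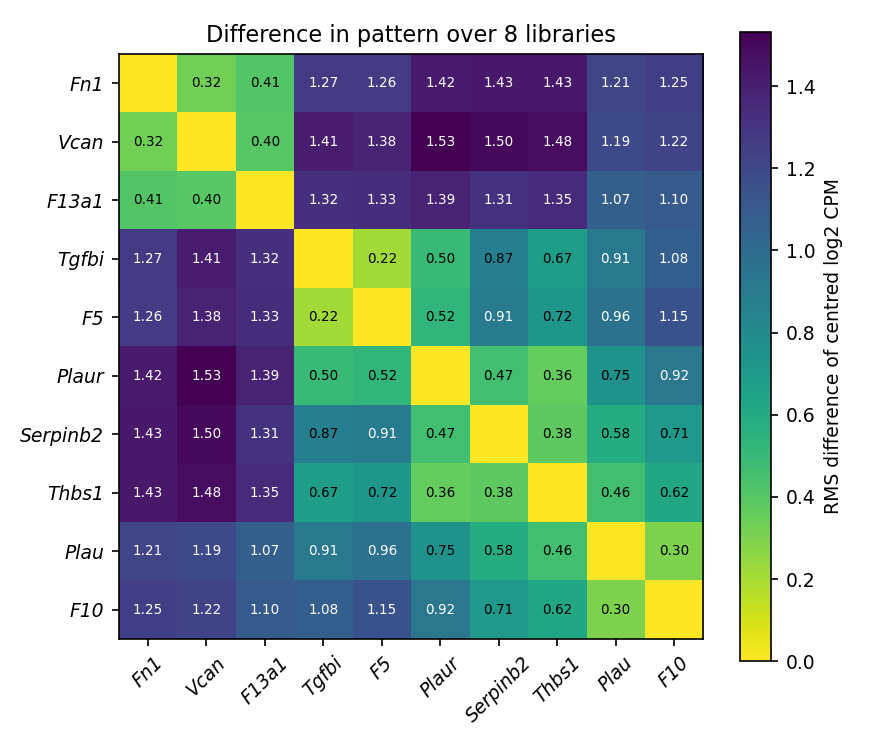
Root mean square difference of centred log2 CPM over 8 libraries for each pair of the 10 genes (darker means farther apart). The pairs Tgfbi and F5 (0.215) and Fn1 and Vcan (0.323) are among the lightest cells, and Vcan and Plaur (1.53) is the darkest.

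Summed macrophage and monocyte markers were lower in H2R-deficient than in wild-type high density, as were Fn1, Vcan and F13a1. Single markers went both ways. The direction of the macrophage sums between the densities depended on the scaling. The summed level of 21 resident peritoneal macrophage markers was 649 to 653 CPM over total counts in H2R-deficient high density, against 841 to 871 CPM in wild-type high density, 717 to 772 CPM in H2R-deficient low density and 875 to 967 CPM in wild-type low density. Over TMM-scaled library sizes the same sums were lower at low density in both genotypes, at 841 to 880 and 517 to 534 CPM in H2R-deficient and 1078 to 1081 and 778 to 786 CPM in wild-type high and low density. The median log2 change of single macrophage markers to low density was above 0 under both scalings. Under TMM it was 0.15 in wild type (11 of 20 above 0) and 0.72 in H2R-deficient libraries (12 of 20), against 0.10 for all genes. Under total counts it was 0.72 and 1.62, against 0.67 and 0.999 for all genes. At high density 18 of the 20 tested markers had a lower value in H2R-deficient libraries, with a median log2 difference of −1.38, against −0.05 for all genes. The 2 highest of the list, Cd93 and Csf1r, differed by 0.31 ± 0.33 and −0.57 ± 0.30. Mrc1 was at 7.89 to 10.7 CPM in H2R-deficient high density and 26.4 to 43.5 CPM in wild-type high density. It was named for its similarity to Fn1 over these same libraries, so this difference is a description and no separate result. None of the 21 markers was at 0 in all libraries, though Gata6, the defining factor of resident macrophages, was at 0 counts in 1 of them and had at most 161. For the 16 monocyte markers the sums over total counts were 1005 to 1328 CPM in H2R-deficient high density and 1498 to 1698 CPM in wild-type high density. At low density they were 1205 to 1418 and 1402 to 1485 CPM in H2R-deficient and wild-type libraries. Over TMM-scaled library sizes the monocyte sums were 1354 to 1719 CPM at high and 896 to 950 CPM at low density in H2R-deficient libraries. In wild type they were 1855 to 2184 and 1128 to 1334 CPM, so low density was lower in both genotypes. At high density 12 of 16 monocyte markers had a lower and 4 a higher value in H2R-deficient libraries, with a median of −0.97. The highest of the list, Nr4a1, was at 295 to 392 CPM in H2R-deficient and 535 to 816 CPM in wild-type high density. Ly6c2 went the other way, at 165 to 167 CPM in H2R-deficient and 102 to 107 CPM in wild-type high density. In H2R-deficient cells 9 of 20 macrophage markers rose and 4 fell at low density, and 5 of 16 monocyte markers rose and 3 fell, where 30.0% of all genes were higher and 23.9% lower. In wild type 0 of 20 macrophage markers were called, and 1 of 16 monocyte markers rose and 3 fell. Markers of some other cells also had lower values in H2R-deficient high density. Lower were 14 of 14 for mesothelial cells and fibroblasts (median −1.78), 7 of 7 for eosinophils (−1.41) and 10 of 10 for dendritic cells (−0.63). So were 6 of 6 for platelets (−0.81) and 5 of 5 for erythroid cells (−1.60). Others went the other way, with 6 of 6 higher for mast cells (median 1.33) and 10 of 13 for T and NK cells (1.34). Higher values were also found for 10 of 15 neutrophil markers (0.19) and 6 of 10 B cell markers (0.02). At low density, where the median of all genes was 0.05, values were lower in H2R-deficient libraries for 13 of 15 neutrophil markers (median −0.71). They were lower for 17 of 20 macrophage (−0.67), 11 of 16 monocyte (−0.40), 6 of 7 eosinophil (−0.90) and 6 of 6 platelet markers (−0.52). Higher values were found for 9 of 10 B cell (1.51) and 6 of 10 dendritic cell markers (0.51). None of these markers was called by edgeR. The part of these cells in the values of Fn1, Vcan, F13a1, Tgfbi and F5 was not tested.

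Of 15 neutrophil markers, 0 were called higher and 4 lower at low density in wild type, beside 4.15% of all genes lower. In H2R-deficient libraries 0 were called higher and 12 lower, beside 23.9% lower. Their median log2 changes were −0.75 and −1.64, and −0.19 and −0.74 under total counts. Markers of other cells also moved with density. Summed mesothelial and fibroblast markers, which belong to cells that make fibronectin and versican, were 16.2 to 26.7 CPM in H2R-deficient high density, 22.5 to 109 CPM in wild-type high density, 77.0 to 485 CPM in H2R-deficient low density and 86.5 to 360 CPM in wild-type low density. Of the 14 tested, 1 was called higher in wild type, beside 8.51% of all genes, and 2 in H2R-deficient libraries, beside 30.0%. Values above 0 were found for 13 of 14 in wild type and 14 of 14 in H2R-deficient libraries. The median log2 changes were 1.47 and 3.47, against 0.10 for all genes in both. Col3a1, the highest of the list, ranged from 0.426 to 133 CPM over the libraries, and from 14.0 to 133 CPM within H2R-deficient low density. Dendritic cell markers summed to 9.25 to 30.6 CPM in the high-density groups and 245 to 961 CPM in the low-density groups, with 6 of 10 higher in wild type and 8 of 10 in H2R-deficient libraries. B cell markers summed to 30.6 to 43.4 CPM at high density and 177 to 1073 CPM at low density, with 8 and 9 of 10 higher. T and NK cell markers summed to 4.24 to 19.1 CPM at high density and 49.9 to 90.5 CPM at low density. Erythroid markers went the other way, from 21.6 to 183 CPM at high density to 0.165 to 1.66 CPM at low density, with 5 of 5 lower in each genotype. Platelet markers summed to 19.5 to 55.0 CPM in all libraries, with Pf4 at 5.09 to 26.7 CPM and Treml1 below the floor of 3 counts in each, against Thbs1 at 12396 to 25358 CPM over total counts. The part of these cells in the members' values was not tested.

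Other genes of the same pathways were put on lists without the 10 members. In wild type the shares called lay on both sides of the 12.7% of all genes. In H2R-deficient libraries they were close to or above the 54.0% of all genes, and highest for the TGF-beta list. Of 20 tested coagulation genes, 1 was higher and 1 lower at low density in wild type, and 8 higher and 3 lower in H2R-deficient libraries. F3, encoding tissue factor, which starts coagulation, fell by 1.85 ± 0.30 on the log2 scale in wild type (edgeR adjusted p = 0.0107) and by 1.27 ± 0.29 in H2R-deficient libraries (adjusted p = 0.00626). F2r, encoding the thrombin receptor PAR1, rose by 2.99 ± 0.43 (adjusted p = 0.00769) and 4.07 ± 0.50 (adjusted p = 0.000369), from 0.189 to 0.715 CPM at high density to 5.24 to 10.5 CPM at low density. In H2R-deficient cells Lman1, a cargo receptor that carries factor V and factor VIII out of the endoplasmic reticulum, rose by 2.44 ± 0.25 while F5 fell, and F2rl2 fell by 1.65 ± 0.27. The median of the 20 genes was 0.31 in wild type and 0.27 in H2R-deficient libraries, against 0.10 for all genes in both.

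The plasminogen list also held Serpinb1a, Serpinb6a, Serpinb8 and Serpinb9, which are relatives of Serpinb2 and not parts of the plasminogen system. Of its 15 tested genes, 2 were higher and 0 lower in wild type, and 5 higher and 4 lower in H2R-deficient libraries. Serpinb9, a granzyme B inhibitor, rose by 4.08 ± 0.60 in wild type (edgeR adjusted p = 0.0106) and 5.71 ± 0.66 in H2R-deficient libraries. S100a10 rose by 0.73 ± 0.20 (adjusted p = 0.0432) and 2.14 ± 0.21, while Anxa2, whose protein forms the plasminogen-binding annexin A2 complex with S100A10, fell by 1.143 ± 0.22 in H2R-deficient libraries (adjusted p = 0.00257). Plgrkt, a plasminogen receptor, fell by 0.77 ± 0.19, which turned to 0.13 under total counts. The list's median was 0.23 in wild type and −0.04 in H2R-deficient libraries.

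Of 11 tested thrombospondin relatives and receptors, 0 were higher and 1 lower in wild type, and 3 higher and 3 lower in H2R-deficient libraries. Thbs4, another thrombospondin, fell by 1.31 ± 0.36 in wild type (edgeR adjusted p = 0.0434). In H2R-deficient cells Cd47, whose protein binds thrombospondin 1, fell by 1.13 ± 0.19 (adjusted p = 0.00142) and Sirpa, the counter-receptor of CD47, by 0.91 ± 0.17, with −0.23 and −0.00161 under total counts. Lrp1, an endocytic receptor for thrombospondin and for urokinase complexes, rose by 1.136 ± 0.18 (adjusted p = 0.000968), and Calr by 0.77 ± 0.20. The list had a median of −0.11 in wild type and −0.42 in H2R-deficient libraries.

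Among 11 tested fibronectin receptors none was called in wild type, and 5 were higher and 2 lower in H2R-deficient libraries. Itga4 and Itgb7, the subunits of integrin α4β7, rose by 1.01 ± 0.20 (edgeR adjusted p = 0.00293) and 1.70 ± 0.28 (adjusted p = 0.00129). Tgm2, a transglutaminase that binds fibronectin, fell by 0.86 ± 0.22 and Itgav by 0.54 ± 0.20, and both turned positive under total counts, at 0.05 and 0.37. Of 13 tested genes of versican and hyaluronan biology, 0 were higher and 2 lower in wild type, and 3 higher and 4 lower in H2R-deficient libraries. Srgn, the intracellular proteoglycan serglycin, fell by 0.93 ± 0.22 in wild type (adjusted p = 0.0326) and 1.47 ± 0.23 in H2R-deficient libraries (adjusted p = 0.000948), and Tlr2, a receptor for versican, fell by 1.08 ± 0.24 (adjusted p = 0.0251) and 1.40 ± 0.24 (adjusted p = 0.00143). Adamts1 and Adamts5, encoding proteases that cleave versican, were called higher in H2R-deficient libraries from at most 0.0901 and 0.225 CPM at high density to 2.33 to 7.19 and 1.76 to 2.93 CPM at low density. The fibronectin receptors had a median of −0.07 in wild type and 0.30 in H2R-deficient libraries, and the versican list 0.37 and 1.18.

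Of 21 tested TGF-beta pathway genes, 0 were higher and 4 lower in wild type, where 8.51% of all genes were higher and 4.15% lower. In H2R-deficient libraries 4 were higher and 12 lower, where 30.0% of all genes were higher and 23.9% lower. Skil, encoding a repressor of SMAD proteins, fell by 0.68 ± 0.18 in wild type (edgeR adjusted p = 0.0378) and 1.11 ± 0.18 in H2R-deficient libraries (adjusted p = 0.00108). Tgif1, another repressor, fell by 0.89 ± 0.20 in wild type (adjusted p = 0.0274), and Nrros, a protein that holds latent TGF-beta on myeloid cells, by 1.13 ± 0.20 in H2R-deficient libraries (adjusted p = 0.00150). Eng, a TGF-beta co-receptor, and Ltbp3, a latent TGF-beta binding protein, rose by 4.15 ± 0.65 (adjusted p = 0.00103) and 2.10 ± 0.62 (adjusted p = 0.0194) in H2R-deficient libraries, from 0.0901 to 0.426 and 0.451 to 0.804 CPM at high density. The median of the list in H2R-deficient libraries was −0.82 under TMM and 0.09 under total counts, so its direction depended on the scaling. With edgeR no gene of the 6 lists was called between genotypes at low density or in the interaction.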

How the data were processed

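RNA of 8 libraries was measured by sequencing. The authors deposited unnormalized read counts for each gene in featureCounts layout, per the file headers. Build GRCm38 and the tools STAR 2.5.2b, Subread 1.5.2 with featureCounts, Trimmomatic 0.36 and bcl2fastq 2.17.1.14 are named in the submitters' processing notes. The strand setting was not given in the sources used here, nor were the handling of multi-mapping reads and the annotation release. Reads of overlapping genes can therefore be misassigned. Symbols came from GENCODE M21 by identifier, for 49056 of 49315.

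The edgeR function filterByExpr (minimum count 10) kept 14909 genes, and TMM scaled the libraries. All 8 libraries entered a robust quasi-likelihood model with a mean for each group (edgeR 4.0.16 in R 4.3.3; 4 residual degrees of freedom, common biological coefficient of variation 0.236), with Benjamini-Hochberg adjustment over all genes and calls at an adjusted p under 0.05. An exact test of 2 against 2 libraries cannot go below p = 0.333. TPM were computed from counts and gene lengths in the files. Alternatives were DESeq2 (1.42.0), its size factors, total counts, no filter, limma-voom (limma 3.58.1), a replicate block, only the 4 libraries compared and leaving out each library. The fit was tested on simulated data with 200 changed genes.

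The members and lists were chosen with earlier results of these data known. Named genes are the 10 members, per list and contrast up to 2 called genes with the lowest adjusted p in each direction, the 4 genes of most similar pattern to Thbs1 and Fn1 (mean of at least 5 CPM, prior count 2), and the 2 highest markers of a list. Marker genes beyond these were chosen after their values were seen. A listed gene with at most 3 counts in every library was counted as under the floor.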

Additional observations from a re-analysis of the deposited data

How the results depend on the processing

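Counts of called members depended on the tool and scaling. In wild-type cells the count for density was 1, against 2 with DESeq2 size factors, 2 with total counts only, 6 with no filter on low counts, 5 with DESeq2 and 0 with only the 4 libraries compared, and 0 to 1 when leaving out 1 library. In H2R-deficient cells it was 7, against 3 with total counts only and 4 to 7 when leaving out 1 library. For genotype at low density it was 0, against 3 with no filter, 3 with DESeq2 and 0 to 1 when leaving out 1 library. For the interaction it was 0, against 1 with total counts, 2 with no filter, 1 with DESeq2 and 0 when leaving out 1 library. Counts over all genes moved with the setting as well. For density in wild type they were 4817 higher and 124 lower of 14909 with total counts, and 2190 and 1171 of 28092 with no filter. DESeq2 size factors gave 1179 and 879 of 14909, and only the 4 libraries compared gave 443 and 165 of 13731. For density in each genotype, leaving out any 1 of its 4 libraries also lowered the calls over all genes. No filter gave 631 and 729 for genotype at low density and 901 and 309 for the interaction. Total counts gave 7690 and 389 for density in H2R-deficient cells and 622 and 13 for the interaction. Replicate numbers shared across the densities correlated in their deviations at 0.155 in wild type and 0.326 in H2R-deficient libraries. Nothing in the labels says that they pair the libraries. A fit with the replicate block gave 5 calls in wild type, 8 in H2R-deficient libraries and 0 in the interaction. Over all 14909 genes it called 1648 higher and 972 lower in wild type and 4749 and 3701 in H2R-deficient libraries. In the interaction it called 12 and 16. This fit called Serpinb2 lower in wild type (edgeR adjusted p = 0.00608) and H2R deficient (adjusted p = 0.00201). No paired analysis was possible for genotype because the genotypes share only 1 number. Of 536 tested values of single genes under alternatives, 459 kept their direction and side of the threshold, 28 newly passed it, 19 no longer passed it and 30 changed sign; of 184 values without a test, 12 moved beyond the spread and 3 changed sign. Total counts turned F10 to 0.29 in wild type, 0.59 in H2R-deficient libraries and 0.31 in the interaction, Plau to 0.29 in H2R-deficient libraries and 0.17 between genotypes, Thbs1 to 0.0536 between genotypes and Plaur to 0.00488 in the interaction. No filter turned F10 to 0.0322 in the interaction. DESeq2 and its size factors turned Plau to −0.0432 and −0.0431 in wild type. Leaving out 1 library gave signs of both kinds for density in wild type for F10 (−0.64 to 0.19) and Plau (−0.18 to 0.26). Between genotypes at low density it did so for Thbs1 (−0.52 to 0.13), Plau (−0.29 to 0.0745), Plaur (−1.12 to 0.0538) and Serpinb2 (−0.19 to 0.90), at high density, without a test, for Plaur (−0.69 to 0.24) and Serpinb2 (−0.50 to 0.76), and in the interaction for F10 (−0.51 to 0.33), F5 (−0.998 to 0.23), Plaur (−0.96 to 0.25) and Serpinb2 (−0.50 to 0.76). The cause of these changes was not tested. The members had 176 to 535850 counts per library, all above the floor of 3 counts.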

Other observations

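The genes closest in pattern to 3 further members, chosen after their values were seen, belonged to different functional classes. Those closest to Plaur were Crem (0.172), G0s2 (0.191), Ell2 (0.192) and Arl5b (0.198), where the number is the root mean square difference of centred log2 CPM over the 8 libraries; Crem encodes a transcription factor that responds to cyclic AMP. Those closest to Serpinb2 were the chemokine genes Cxcl3 (0.257) and Ccl4 (0.315), followed by Cldn1 (0.359) and Tnfrsf26 (0.373). Those closest to F13a1 were Emp1 (0.221), Lpl (0.221), Rai14 (0.222) and Olfm1 (0.243).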
